A study of Mus musculus with 18 samples.

Results

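The mir-696 entry of the mouse miRNA catalogue (mmu-mir-696) was followed across BV-2 microglial cells that were left untreated, activated with lipopolysaccharide (LPS), or exposed to the plant cannabinoids cannabidiol (CBD) or Δ9-tetrahydrocannabinol (THC) with or without LPS. Its members were the rows named mir-696 or miR-696. There were 2 of them among 2134 rows: the hairpin precursor mir-696, 1 of 855 hairpin rows, and the mature miR-696, 1 of 1279 mature rows. The hairpin was selected on measured values of these samples, namely its lower level with CBD in resting and in LPS-treated cells. The CBD differences are therefore described without a test, and tests are given for THC and LPS. Every sample is the BV-2 line, an immortalised mouse microglial line, so no group holds primary cells. Each of the 6 groups had 3 samples: untreated (Ctrl), CBD, CBD+LPS, THC, THC+LPS and LPS. The labels of the single treatments give 10 µM for CBD and THC and 100 ng/ml for LPS, and those of the combined groups give no dose. By the methods of the study, the combined groups had the same doses, cannabinoids came from ethanol stocks, LPS followed 2 h later, and cells were taken after another 4 h. The labels number the samples from 22 to 39 but name no culture, so the spread between samples may be partly technical.

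A miRNA gene is transcribed into a primary transcript, from which Drosha releases a hairpin and Dicer then cuts a short duplex. One strand of the duplex, the mature miRNA, guides Argonaute to messenger RNAs through its seed, the bases near its 5′ end. In mouse skeletal muscle, miR-696 is known as a miRNA that responds to physical activity and lowers PGC-1α, the product of Ppargc1a and a coactivator of mitochondrial and oxidative genes. LPS, a component of the bacterial outer membrane, activates microglia through TLR4. CBD and THC are isomers: THC has a closed pyran ring where CBD has an open ring and a free hydroxyl group.

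The libraries held 442718 to 1057147 reads assigned to miRNA entries (median 773271), and between 1016 and 1494 rows had a read. Of the 6 myeloid miRNAs listed as markers of the line, 6 were present in all 18 samples, with a summed level of 33159 to 75374 CPM. Of the neuronal markers, miR-124-3p had 4 reads in all and miR-9-5p had 118, in 18 of 18 samples, and the hepatic marker miR-122-5p had 5. Samples 22 (Ctrl), 27 (THC+LPS), 30 and 36 (CBD) stood apart, with 0.151% to 0.361% of their reads on the abundant hairpins mir-6240, mir-6243 and mir-6236, against 1.20% to 4.55% in the other 14.

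The hairpin mir-696 was detected in 18 of 18 samples with 731 reads in all, and its level followed the presence of CBD. Levels are given as CPM, the reads of a row relative to the library size after scaling by the TMM factor. In untreated cells it stood at 89.3, 68.4 and 75.7 CPM, from 42, 40 and 65 reads. In CBD-treated cells it stood at 27.2, 37.6 and 25.3 CPM, from 19, 20 and 16 reads. Each CBD sample thus lay well under each control sample. In LPS-treated cells the hairpin stood at 64.1, 75.5 and 66.9 CPM, from 49, 57 and 65 reads. With CBD before LPS it stood at 25.9, 41.2 and 35.99 CPM, from 23, 31 and 30 reads, again with no overlap between the groups. With THC it stood at 70.6, 49.6 and 48.6 CPM, from 71, 42 and 36 reads, and the highest of these lay inside the control range. With THC before LPS it stood at 49.8, 56.7 and 56.2 CPM, from 28, 48 and 49 reads. All 6 samples that received CBD held 25.3 to 41.2 CPM, and all 12 that did not held 48.6 to 89.3 CPM. The hairpin was selected on its lower level in these CBD samples, and the features that separate in this way were not counted. Nothing is therefore read from this separation.

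**Figure D1:**
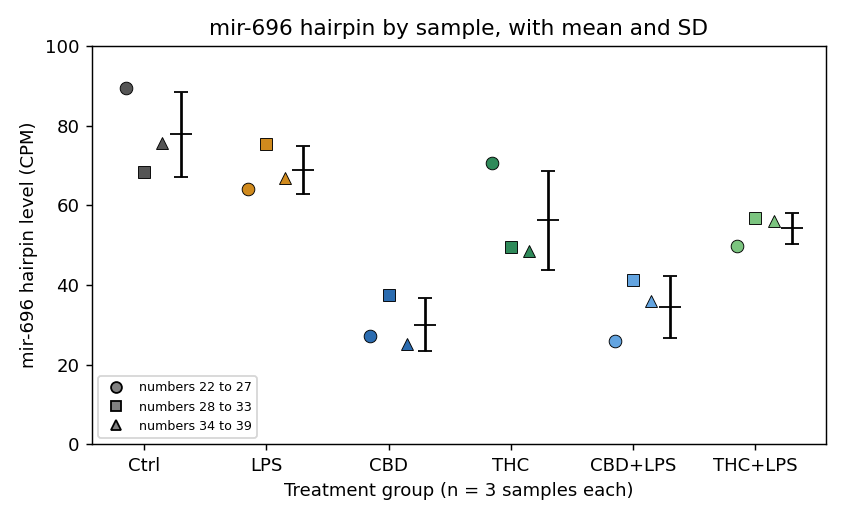
Level of the mir-696 hairpin in CPM (vertical axis) in each of the 18 samples by treatment group, with the group mean and SD (n = 3) as a bar beside the points and the point shape giving the run of sample numbers. The CBD and CBD+LPS samples, on whose lower level the hairpin was selected, sit at 25.3 to 41.2 CPM, under all samples without CBD.

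The group means gave the order Ctrl, LPS, THC, THC+LPS, CBD+LPS and CBD. They were 77.8 ± 10.6, 68.8 ± 5.92 and 56.3 ± 12.4 CPM for Ctrl, LPS and THC (SD, n = 3 each). They were 54.2 ± 3.88, 34.4 ± 7.75 and 30.03 ± 6.59 CPM for THC+LPS, CBD+LPS and CBD (SD, n = 3 each). Neighbours in this order overlapped in their samples, except THC+LPS and CBD+LPS, where the lowest THC+LPS sample held 49.8 CPM and the highest CBD+LPS sample 41.2 CPM.

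With CBD alone the mean of the hairpin was 38.6% of control, and the difference on the log2(CPM + 1) scale was -1.36 (standard error 0.26, 95% interval -1.91 to -0.80). With CBD before LPS the mean was 49.9% of LPS, a difference of -1.003 (standard error 0.26, interval -1.56 to -0.45). The CBD samples all lay under the control samples for 45 of the 1363 tested features (3.3%), and the CBD+LPS samples under the LPS samples for 80 (5.87%). The rule chose the hairpin on these contrasts, so nothing is read from its place among these features. The size of the CBD difference was 0.35 log2 units smaller with LPS than without it (standard error 0.37, interval -0.43 to 1.14), an interval that spans 0. The hairpin was selected on both contrasts, so the intervals of its CBD differences are descriptions and serve as no test.

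CBD and THC were applied at the same dose and time, so the isomers can be set side by side. In resting cells the hairpin was at 30.03 CPM with CBD and 56.3 CPM with THC, a log2 difference of -0.88 (standard error 0.26, interval -1.44 to -0.33). Under LPS it was at 34.4 and 54.2 CPM, a difference of -0.66 (standard error 0.26, interval -1.22 to -0.11). Neither pair overlapped, which held for 144 (10.6%) and 52 (3.82%) of the tested features in this direction. These 2 pairs also use the CBD samples that chose the hairpin, so the differences are descriptions.

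THC itself gave smaller differences of the hairpin, and none passed the criterion of the study (a 1.5-fold change and an unadjusted p no higher than 0.005). In resting cells the mean with THC was 72.3% of control, a log2 difference of -0.47 (standard error 0.26, interval -1.03 to 0.08, adjusted p 0.977 from limma). The unadjusted p from limma was 0.0887. By the same criterion 6 of 1363 features were called (0.44%). In LPS-treated cells the mean with THC was 78.8% of LPS, a difference of -0.34 (standard error 0.26, interval -0.89 to 0.22, adjusted p 0.9998 from limma), and 3 features were called (0.22%). The unadjusted p was 0.215. All 3 THC+LPS samples lay below all 3 LPS samples, as for 63 features (4.62%). The THC difference was 0.14 larger on the log2 scale, that is nearer 0, with LPS than without it (standard error 0.37, interval -0.65 to 0.92, adjusted p 0.990). For this interaction limma called 0 features (0%) at the adjusted p threshold of 0.1, with 51 at an unadjusted p under 0.05, and edgeR and DESeq2 also called 0. These intervals still hold a THC difference of up to -1.03 in resting cells, so they do not show that THC left the hairpin as it was. They share the control and LPS samples with the CBD contrasts.

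LPS moved the hairpin less than the spread between samples in each cannabinoid background. Without cannabinoid the mean with LPS was 88.4% of control, a log2 difference of -0.17 (standard error 0.26, interval -0.72 to 0.38, adjusted p 0.966 from limma), beside 21 called features (1.54%). In CBD-treated cells the difference was 0.18 (standard error 0.26, interval -0.37 to 0.74, adjusted p 0.876), beside 22 called features (1.61%). Both groups of that comparison, and 6 of the samples of the pooled one, are samples on whose low level the hairpin was selected. The selection did not use the LPS contrast, but the p-values of these comparisons are not free of it and are read as descriptions. In THC-treated cells it was -0.03 (standard error 0.26, interval -0.59 to 0.52, adjusted p 0.990), beside 19 called features (1.39%). Pooled over the cannabinoid backgrounds the LPS difference was -0.01 (standard error 0.15, interval -0.32 to 0.30, adjusted p 0.993 from limma). For this pooled comparison 21 features were called at an adjusted p of at most 0.1 (1.54%). 

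**Figure D2:**
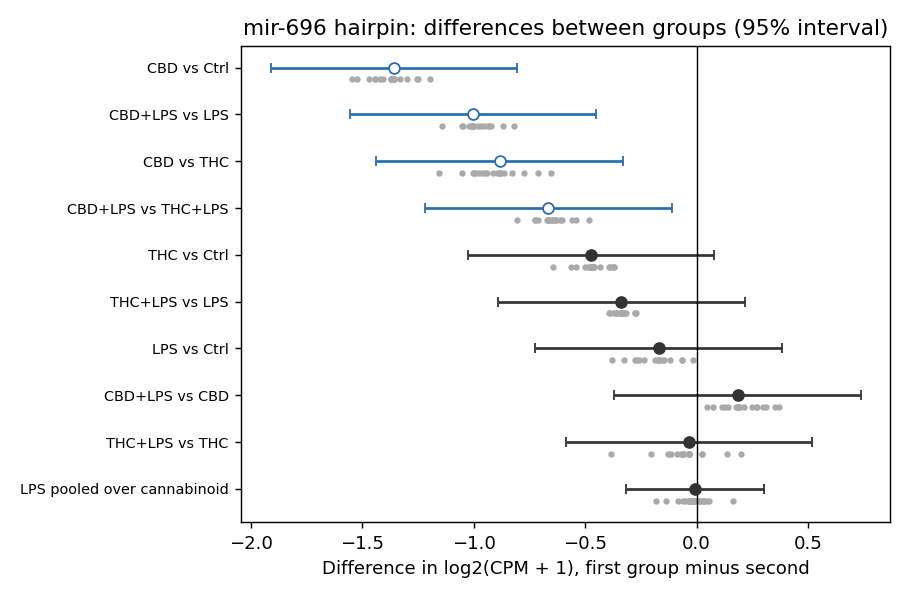
Difference of the mir-696 hairpin in log2(CPM + 1), first group minus second (horizontal axis), with 95% intervals from limma. Open blue points compare CBD with control, LPS or THC groups and carry no test. All of them use the CBD samples on whose level the hairpin was selected. Filled black points were tested, and grey dots are the other processing settings and left-out samples. The CBD differences run from -1.36 to -0.66 and the LPS differences lie between -0.17 and 0.18.

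The sample numbers fall into 3 runs of 6, each with 1 sample of every group. In each run the CBD and CBD+LPS samples, on which the hairpin was selected, held the lowest and second lowest hairpin levels. The ratio of CBD to Ctrl was 0.305 in samples 22 to 27, 0.549 in samples 28 to 33 and 0.334 in samples 34 to 39. The ratio of CBD+LPS to LPS was 0.405, 0.546 and 0.538 in the same runs. The ratio of THC to Ctrl was 0.790, 0.725 and 0.642, and that of THC+LPS to LPS was 0.776, 0.752 and 0.839. Whether a run of numbers was handled together is not given in the labels.

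The composition of the libraries described above differed within the CBD group. Samples 24, 30 and 36 (CBD) had 1.67%, 0.160% and 0.151% of their reads on those abundant hairpins and held 27.2, 37.6 and 25.3 CPM of mir-696. The CBD+LPS samples had 1.20% to 2.78% there. Sample 22 (Ctrl), with 0.204% of its reads there, held the highest level, 89.3 CPM. With this composition as a covariate the CBD difference was -1.42 in resting and -1.004 in LPS-treated cells. Without samples 22, 27, 30 and 36, which leaves 1 CBD sample, it was -1.37 (standard error 0.39) in resting cells. None of these samples is from the LPS or CBD+LPS group, so the difference of -1.003 in LPS-treated cells could not change. Scaled to miR-103-3p and miR-191-5p, abundant miRNAs often used as references, the hairpin had 4.28 ± 1.04 reads per 1000 reference reads in Ctrl and 1.44 ± 0.36 with CBD. It had 3.22 ± 0.20 with LPS and 1.64 ± 0.12 with CBD+LPS (SD, n = 3 each).

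**Figure D3:**
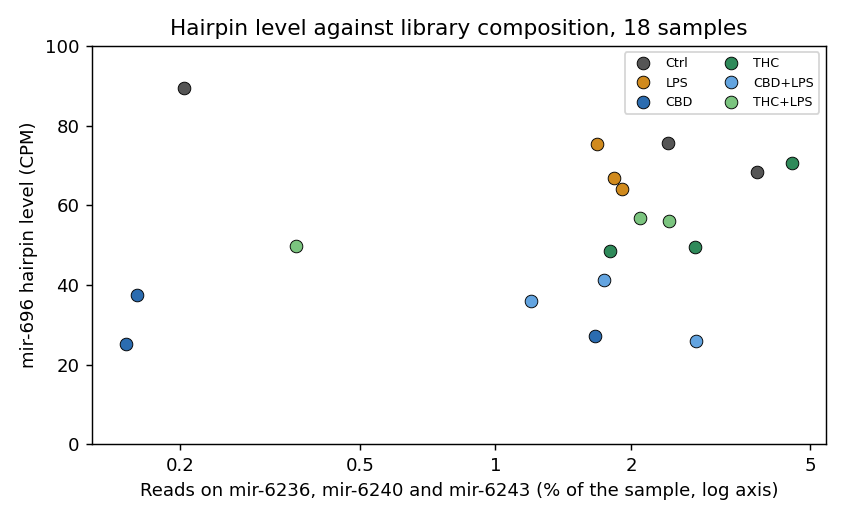
Level of the mir-696 hairpin in CPM (vertical axis) against the percentage of reads that fell on mir-6240, mir-6243 and mir-6236 (horizontal log axis), 1 point per sample, coloured by group. The CBD samples lie at 0.151%, 0.160% and 1.67% with 25.3 to 37.6 CPM, and the control sample at 0.204% is the highest of all.

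The hairpin varied little within groups. Its SD within groups was 0.24 on the log2 scale, against a median of 0.46 for the 104 tested features within 0.5 log2 units of its mean level, and 9.62% of these had a smaller one. The chi-square of its reads within groups was 1.02 per degree of freedom (12 degrees), close to what counting alone gives, against a median of 3.20 for those features. A feature selected for a difference between groups tends to have a small spread, so this is a description.

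The mature miR-696, the strand that would act on a target, was near the limit of detection. It had 8 reads in all, in 6 of 18 samples and never more than 2 in a sample. The control samples held 1, 2 and 1 reads, the THC samples 2, 0 and 0, the CBD+LPS samples 0, 1 and 0, and the THC+LPS samples 0, 0 and 1. The LPS and CBD samples held 0 reads each. No sample reached 3 reads, the limit that a count of 0 allows, which stands at 2.98 to 6.38 CPM, and the highest level was 3.42 CPM. The mature row had under 10 reads over the 18 samples and was not tested, and whether the mature miRNA followed the hairpin was not detectable at this depth.

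Reads on mir-696 therefore came almost all from the hairpin row. Its mature row took 1.08% of the reads of hairpin and mature together. Among 354 hairpins with at least 100 such reads and no second genomic copy in their name, the median share on the mature arms was 88.2%, and 17 hairpins had a lower share than mir-696. A share under 10% was found for 61 of them. The share depends on the rows available: mir-696 has 1 mature row, as do most of the 17, while most hairpins of high share have 2. Reads from an arm without a row of its own could be counted only on the hairpin row. Where along the hairpin the reads lay, and whether they came from a precursor or from another RNA that matches the entry, was not tested.

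**Figure D4:**
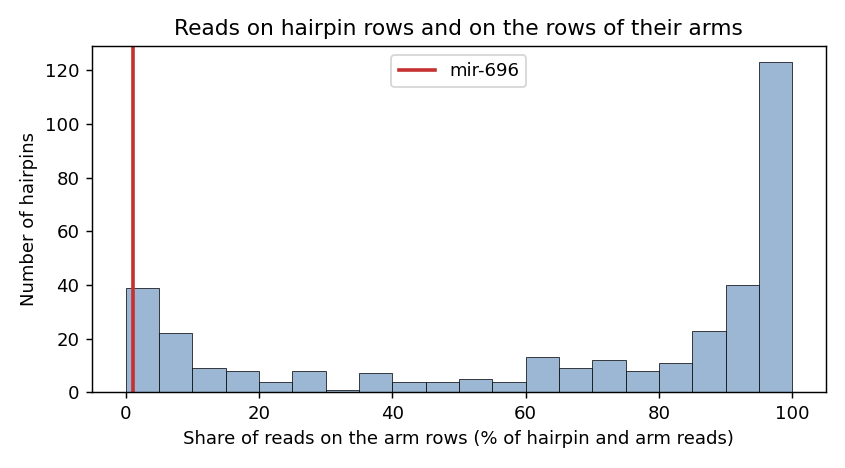
Number of hairpins (vertical axis) by the share of their reads that fell on the rows of their mature arms, in percent (horizontal axis, 5-point bins), for 354 hairpins; the red line is mir-696 at 1.08%. Most hairpins lie near the upper end, with a median of 88.2%, and 61 lie under 10%.

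Low shares on the arms were also found among entries with neighbouring catalogue numbers. Of 18 such hairpins with numbers near that of mir-696 (from mir-690 to mir-721) compared in this way, 7 had a share under 10% and the median was 22.6%. The hairpin mir-707 had 650 reads and its arm 0, mir-717 had 1685 and 2, and mir-698 had 915 and 9. Their hairpins are shown because their deposited reads, like those of mir-696, fell outside the arm rows. Capitals mark the mature arms of the RefSeq annotation of GRCm38.p6. Their positions are chr4:124743781-124743889 on the plus strand for mir-698, chr7:44849699-44849771 on the plus strand for mir-707 and chrX:52422407-52422515 on the minus strand for mir-717.
mir-698: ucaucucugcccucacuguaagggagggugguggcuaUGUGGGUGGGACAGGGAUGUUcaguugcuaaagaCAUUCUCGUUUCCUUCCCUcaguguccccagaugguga
mir-707: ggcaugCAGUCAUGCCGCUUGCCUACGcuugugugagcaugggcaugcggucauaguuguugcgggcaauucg
mir-717: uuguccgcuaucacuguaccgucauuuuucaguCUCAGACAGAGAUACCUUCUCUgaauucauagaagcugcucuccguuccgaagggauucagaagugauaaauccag

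Of the 63 other rows from mir-690 to mir-721, 49 were tested, and the CBD difference against control lay below 0 for 25 of them, with a median of -0.02 against 0.00 over all tested features. The 7 hairpins among them with under 10% of reads on the arms, a group set apart after the values were seen, ran differently: 5 were lower with CBD by more than 1 log2 unit, and the median was -1.52. Of those shown above, mir-717 stood at 206 ± 106 CPM in Ctrl and 60.5 ± 55.7 CPM with CBD, and mir-707 at 42.7 ± 37.02 and 13.9 ± 22.7 CPM (SD, n = 3 each). The hairpin mir-698 stood at 57.1 ± 9.32 and 91.0 ± 17.0 CPM. The log2 differences were -1.94 (standard error 0.60), -1.77 (1.47) and 0.66 (0.29). The others were mir-714 at -1.68 (0.64), mir-710 at -1.52 (0.73), mir-712 at -1.18 (0.37) and mir-703 at 1.07 (0.56).

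Within the CBD group, the samples of low composition share held the fewest reads of mir-717 and mir-707. The CBD samples 24, 30 and 36 held 87, 15 and 18 reads of mir-717 and 28, 0 and 1 reads of mir-707, and samples 30 and 36 are those of low composition share. Samples 22 (Ctrl) and 27 (THC+LPS), also of low share, held 0 and 1 reads of mir-707 but 131 and 137 of mir-717. The level of mir-717 in sample 22, 278.6 CPM, was its highest over the 18 samples. Without samples 22, 27, 30 and 36 the median of the 7 was -0.33 and 1 was lower by more than 1 log2 unit, against -1.37 for mir-696. In LPS-treated cells the median CBD difference of the 7 was -0.19, and 0 were lower by more than 1 log2 unit, against -1.003 for mir-696. The values without the 4 samples rest on 1 CBD sample. The hairpin mir-696 was selected on these contrasts, so nothing is read from its larger differences beside those of the 7. Over all 60 other hairpins with under 10% of reads on the arms, 44 lay below 0 with CBD in resting cells (73.3%, against 49.7% of all tested features), 23 by more than 1 log2 unit, with a median of -0.59. Without the 4 samples these were 41, 11 and -0.36. The 60 include the 7 and also mir-6236, mir-6240 and mir-6243, whose low reads set the 4 samples apart, so part of this shift was fixed in advance. In LPS-treated cells 30 of 60 lay below 0 and 1 by more than 1 log2 unit, with a median of -0.01. Where the reads of these hairpins came from, and the part of the composition in the levels, was not tested.

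Among the other rows from mir-690 to mir-721, those with the most reads were the hairpins mir-712 with 2983, mir-714 with 2935 and mir-690 with 1769. In the 5 tested comparisons of 2 groups, 1 of the 49 rows numbered near mir-696 passed the criterion once: mir-706 rose with LPS from 7.05 ± 4.38 to 21.6 ± 1.72 CPM (SD, n = 3 each). Its log2 difference was 1.69 (standard error 0.51), with an adjusted p of 0.277 from limma. A count of 1 in 49 is near the 1.54% called over all features.

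Features were ranked for likeness to the mir-696 hairpin by Pearson's r over the 18 values of log2(CPM + 1), among the 593 tested features with a mean of at least 10 CPM. The median r was 0.02. All points share the libraries, their depth and the CBD groups on which the hairpin was selected, so these values are descriptions. The most alike was miR-92a-1-5p, the 5′ arm of a miRNA of the miR-17~92 cluster, with r of 0.73 and Spearman's rho of 0.66. In the 12 samples without CBD its r was 0.28. Next came miR-6390 with r of 0.66 (0.55 without the CBD samples) and the hairpin mir-5099 with 0.61 (0.14). The hairpin mir-92a-2 had r of 0.59 (0.26), and miR-503-5p, a relative of miR-16 that restrains cell cycle genes, had 0.56 (0.42). In the 12 samples numbered 28 to 39, 0 of these 5 were among the 5 most alike.

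The features least alike ran the other way and did so more closely. The brain-enriched miR-129-5p had r of -0.88 and rho of -0.87, and it kept r of -0.71 without the CBD samples. Its level was 28.6 ± 8.32 CPM in Ctrl, 64.2 ± 4.83 with CBD, 32.1 ± 5.33 with LPS and 64.0 ± 25.6 with CBD+LPS (SD, n = 3 each). With THC it was 31.4 ± 14.2 CPM and with THC+LPS 44.6 ± 13.7 CPM. The hairpin mir-181b-1, precursor of a miRNA known to restrain inflammatory signalling, had r of -0.85 (-0.52 without the CBD samples). It stood at 133 ± 24.1 CPM in Ctrl and 412 ± 136 CPM with CBD. The hairpin mir-505 had r of -0.82 (-0.20 without the CBD samples) and stood at 199 ± 9.83 CPM in Ctrl and 325 ± 49.3 CPM with CBD.

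The sequences of the mature miRNAs most and least like the hairpin are shown so that their seeds can be compared, with the seed (bases 2 to 8) in capitals. The hairpin of mir-181b-1 follows with its mature arms in capitals. All are from RefSeq on GRCm38.p6. The positions are chr14:115044437-115044459 for miR-92a-1-5p and chrX:53054027-53054049 for miR-503-5p. They are chr14:105623710-105623730 for miR-6390 and chr1:137966639-137966718 for mir-181b-1. The sequence of miR-129-5p is encoded at chr2:94241419-94241439 and at chr6:29022624-29022644. No seed was shared among the 4 miRNAs.
miR-92a-1-5p: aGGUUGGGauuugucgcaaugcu
miR-6390: gAAUUGAUcaggauguaacca
miR-503-5p: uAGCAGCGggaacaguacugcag
miR-129-5p: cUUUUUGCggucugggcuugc
mir-181b-1: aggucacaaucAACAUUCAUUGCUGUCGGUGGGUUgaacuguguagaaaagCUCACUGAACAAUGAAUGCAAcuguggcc

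**Figure D5:**
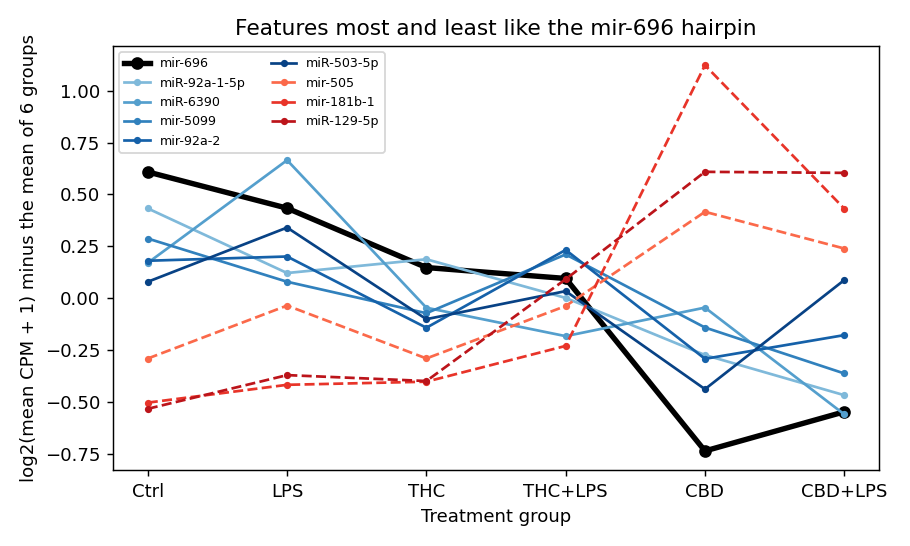
Group means as log2(mean CPM + 1) minus the average of the 6 groups (vertical axis) for the mir-696 hairpin (black), the 5 features with the highest correlation with it (solid blue) and the 3 with the lowest (dashed red), by treatment group. The black line is lowest with CBD and CBD+LPS, where the dashed lines are highest.

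Other features that the study listed as lower with CBD differed from mir-696 in their spread. The hairpin mir-666 had 5, 125 and 31 reads in Ctrl and 12, 4 and 3 with CBD, so that the groups overlapped, and it ranged from 4.74 to 213.7 CPM over the 18 samples. The mature entries miR-3962, miR-5129-5p and miR-6351 had 48, 64 and 131 reads in all and 0 in each CBD sample. The median CBD difference of these 4 was -2.39 in resting cells and -0.60 in LPS-treated cells. For mir-696 the differences were -1.36 and -1.003. The study chose this list on the same samples, so it is no independent evidence of a direction.

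Other miRNAs linked in the literature to Ppargc1a, the known target of miR-696 in muscle, were measured too. The list held the hairpin and 1 mature row for each of miR-23a, miR-23b, miR-130b and miR-761, and no other arms. All 8 listed rows were tested, and 0 passed the criterion in the 5 tested comparisons of 2 groups. Over all features 0.22% to 1.61% were called there, so a count of 0 among 8, or among the 4 muscle miRNAs below, sets these lists apart in no way. Their CBD difference against control lay below 0 for 4 of 8, with a median of -0.01. The mature miR-23a-3p, miR-23b-3p and miR-130b-3p averaged 2479, 3106 and 2292 CPM over the 18 samples, and miR-761 had 10 reads in all. Of 9 muscle miRNAs, 8 were listed in the files and 4 had at least 10 reads, and 0 passed the criterion. The myogenic miR-1a-3p, miR-133b-3p and miR-206-3p had 9, 7 and 7 reads. The muscle entries with the most reads were miR-208a-3p, miR-486-5p and miR-208b-3p with 343, 258 and 23.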

How the data were processed

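Total RNA of BV-2 cells was made into small RNA libraries, pooled and sequenced on an Illumina instrument by the authors. By their methods, reads were aligned with BWA to the mouse hairpins and mature miRNAs of miRBase, with at most 10 mappings per read, and normalised with edgeR. The deposited values are CPM, which the authors scaled by TMM factors. In 11 samples their sum exceeds that of unscaled CPM, and the deposited values of those samples were recorded as a signal of the same kind. Dividing each sample's values by what 1 read is worth there gave whole reads for 100% of values (tolerance 0.001 read), and a recomputed TMM scale deviated by at most 4.85e-10. Rows summing to 10 or more reads entered the fit (642 hairpins and 721 mature miRNAs) with limma 3.58.1 (R 4.3.3) on log2(CPM + 1), with a mean-variance trend and 1 coefficient per group over all 18 samples. The p-values were adjusted by Benjamini-Hochberg over all tested features. The count tests edgeR 4.0.16 and DESeq2 1.42.0 on recovered reads were alternatives. Fold changes on this scale understate those of low features. The procedure was checked on simulated data.

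The members, lists and comparisons were chosen with earlier results of these data known. Named features were the mir-696 rows, the 5 features most and 3 least correlated with the hairpin, members of the lists past the criterion or with the most reads, and the features that the study lists as lower with CBD. The CBD against THC differences were added after the data were seen. Of 86 names looked up in the RefSeq sequence table, 67 matched. A sequence or position of mir-696 was not used here.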

Additional observations from a re-analysis of the deposited data

How the results depend on the processing

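The mir-696 hairpin passed no threshold in a tested comparison under any of the 15 other settings (pseudocounts, filters, scales, covariates, samples 28 to 39 alone, the 4 samples of low composition share left out, the 3 runs of sample numbers as a block, edgeR and DESeq2) or with any sample left out. Leaving out those 4 samples and the block of runs were chosen after the data were seen. The CBD difference ranged from -1.54 to -1.20 in resting and from -1.01 to -0.87 in LPS-treated cells, and from -1.52 to -1.25 and -1.14 to -0.82 with a sample left out. CBD against THC ranged from -1.15 to -0.65, and under LPS from -0.72 to -0.54. Tested differences kept their sign for LPS, for THC, for THC under LPS and for LPS with CBD.

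Differences near 0 changed sign. LPS in THC-treated cells gave 0.20 in samples 28 to 39 and 0.026 without the 4 samples, and pooled LPS gave 0.16 and 0.056. On the scale of miR-103-3p and miR-191-5p the interaction of THC with LPS was -0.0042. With a sample left out, these 3 ranged from -0.13 to 0.14, from -0.060 to 0.045 and from 0.03 to 0.31. The samples that turned the sign were 25 and 27 for LPS in THC-treated cells and 22, 23, 25, 26, 27, 30, 34 and 35 for pooled LPS. The cause was not tested.

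Counts of called features ranged over the settings from 16 to 37 for LPS, from 0 to 13 for THC, from 1 to 5 for THC under LPS, from 15 to 144 for LPS with CBD, from 14 to 24 for LPS with THC and from 20 to 33 for pooled LPS. With a sample left out, the count fell to 3 for THC without sample 39. It became 5 for THC under LPS without sample 24, 26 or 30 and 1 without sample 29. It rose to 40 and 53 for LPS with CBD without samples 22 and 24, and fell to 12 for LPS with THC without sample 25. At 16 to 71 hairpin reads per sample the intervals are wide, and 8 reads allow no comparison of the mature miR-696. The labels name no pairs of samples, since each sample number occurs once, and they do not say whether a run of numbers belongs together. With the runs of numbers as a block the hairpin differences between 2 groups were the same, with a standard error of 0.24. Each run holds 1 sample of every group, so a block can change only the standard error. The same holds for the covariate for samples 22 to 27, the other filters and the fit without a mean-variance trend.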
